A study of Mus musculus with 8 samples.

Results

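The regions described here carried a peak of H3K27ac, histone H3 acetylated at lysine 27, in every list from fasted mice and in no list from fed mice. Overlapping peaks (at least 1 bp) of the 8 H3K27ac lists were merged on chromosomes 1 to 19, X and Y, which gave 112301 regions, and 449 of them (0.400%) met this rule. The reverse rule, a peak in all 4 Fed and no Fast lists, was met by 94 regions (0.0837%). The Fast lists held 36737 to 68545 peaks and the Fed lists 32392 to 48242, so both rules were not equally easy to meet. Both counts were not compared at equal list length. Because the 449 regions were chosen by the presence or absence of H3K27ac peaks in these 8 lists, their H3K27ac counts, scores and widths are given as a description without a test.

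The material was small intestinal crypts of male C57BL/6J mice aged 9 weeks, freed with EDTA and dissociated into single cells with trypsin, and the marks were mapped by CUT&Tag, in which an antibody brings a transposase to the marked chromatin. Fed (-Tetra) mice had food and no tetracycline, Fast (-Tetra) mice were fasted for 24 h, Fed (+Tetra) mice received tetracycline for 21 days, and Fast (+Tetra) mice received both. Each of the 4 groups had 1 sample for H3K27ac and 1 for H3K9ac, the acetylation of lysine 9 on the same histone, and each sample came with 2 peak lists, 16 lists in all. The labels do not say whether lists 1 and 2 are separate mice, so the spread between lists may be technical and p-values over lists may be too small. The depth behind each list is unknown.

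H3K27ac marks active promoters and enhancers, the latter being stretches of regulatory DNA that can lie far from the gene they act on. Crypts hold the stem cells, Paneth cells and dividing progenitors of the intestinal lining. Fasting is known to raise fatty acid oxidation and ketone body production in crypt cells through PPAR receptors, and it raises circulating glucocorticoids. In bulk material of this kind, a change in the mix of cells and a change of acetylation within a cell cannot be told apart.

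The tissue label was checked on gene ends, a gene being called marked when an H3K27ac peak lay within 1 kb of either end. Of 12 pan-epithelial genes such as Epcam, 11 were marked in every list, and Tjp1 in none. Of 16 genes of lymphocytes and myeloid cells, between 2 and 9 were marked in Fed lists and between 7 and 8 in Fast lists, while Cd4, Adgre1 and Csf1r were among those marked in none. Of 14 genes of fibroblasts, endothelium, muscle and nerve, between 0 and 2 were marked in either feeding state. Fast lists held 68545 and 55415 H3K27ac peaks for lists 1 and 2 of Fast (-Tetra) and 56717 and 36737 for Fast (+Tetra), against 32392 to 48242 in Fed lists.

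Most of the 449 regions lay away from genes' ends, but 26 of them overlapped a start site window, which in the RefSeq table for GRCm38.p6 runs from 250 bases before to 50 after a start site. That table gave windows for 17491 of the 21883 protein-coding genes (79.9%) and no window on 1 chromosome, where 12 of the 449 regions lie, so counts at start sites are lower bounds. These 26 regions touched 30 windows of 27 genes, 10 protein-coding and 17 long noncoding. The windows of 4 protein-coding genes are shown, since they run from CpG-poor to fairly CpG-rich start sites at which H3K27ac was found with fasting (the richest window, that of Epb41, had 37 CpGs). Each is written 5′ to 3′ on the gene's own strand in GRCm38, with every CpG, a C followed by a G, in capitals. Fgfr4 encodes a receptor for FGF15, the intestinal hormone of bile acid control, and its window is chr13:55152568-55152867 on the plus strand, with 20 CpGs. Tnfrsf19, also called Troy, is a receptor expressed in intestinal stem cells, and its window is chr14:61046806-61047105 on the minus strand, with 14 CpGs. Ptprc encodes CD45, the surface phosphatase of white blood cells, and its window is chr1:138175256-138175555 on the minus strand, with 4 CpGs. Scn2b encodes a sodium channel beta subunit, and its window is chr9:45117626-45117925 on the plus strand, with 2 CpGs, of which 106 bases were overlapped.
Fgfr4: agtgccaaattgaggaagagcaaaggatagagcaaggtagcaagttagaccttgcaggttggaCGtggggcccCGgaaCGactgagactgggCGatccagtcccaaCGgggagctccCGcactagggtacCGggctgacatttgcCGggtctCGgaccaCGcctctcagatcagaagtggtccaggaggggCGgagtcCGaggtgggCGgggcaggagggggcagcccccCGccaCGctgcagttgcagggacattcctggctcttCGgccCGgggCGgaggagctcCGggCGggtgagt
Tnfrsf19: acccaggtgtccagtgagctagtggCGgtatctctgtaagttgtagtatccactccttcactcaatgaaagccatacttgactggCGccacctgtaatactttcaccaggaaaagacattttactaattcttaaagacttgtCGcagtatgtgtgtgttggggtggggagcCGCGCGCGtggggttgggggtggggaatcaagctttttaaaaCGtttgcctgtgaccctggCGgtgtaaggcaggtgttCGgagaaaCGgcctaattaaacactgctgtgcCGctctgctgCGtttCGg
Ptprc: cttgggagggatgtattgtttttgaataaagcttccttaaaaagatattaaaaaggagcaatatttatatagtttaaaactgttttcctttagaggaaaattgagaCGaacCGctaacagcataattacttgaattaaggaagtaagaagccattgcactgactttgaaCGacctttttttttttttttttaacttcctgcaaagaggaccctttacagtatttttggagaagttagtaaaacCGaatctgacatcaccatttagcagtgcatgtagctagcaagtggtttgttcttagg
Scn2b: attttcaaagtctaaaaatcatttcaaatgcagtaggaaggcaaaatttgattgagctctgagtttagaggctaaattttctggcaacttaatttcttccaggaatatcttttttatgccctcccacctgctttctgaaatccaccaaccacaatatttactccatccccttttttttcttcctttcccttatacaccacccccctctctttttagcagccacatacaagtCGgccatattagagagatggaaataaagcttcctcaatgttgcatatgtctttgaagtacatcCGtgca

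Across all 30 windows the median was 4.5 CpGs and 50.3% G and C. All 32851 windows of the table had a median of 7.0 CpGs and 52.7% G and C, and the 8500 windows overlapped by H3K27ac regions present in all 8 lists had 22.0 CpGs and 61.7%. These 30 windows were thus poorer in CpGs than the windows marked in every list. However, most of their genes were long noncoding, and some genes, such as Ptprc, gave more than 1 window. CpGs were not compared within gene types. The 30 windows were also searched on both strands for 12 short motifs. The letters GGAATG, a core bound by TEAD factors, were found in 9 windows (30.0%, against 14.7% of all windows), among them those of Fgfr4, Cklf, Trak1 and Epb41. These 9 windows lay in 8 regions, since Epb41 and the noncoding Gm36157 have overlapping windows that share 1 match. The letters CTTTGAA (TCF/LEF) were found in 3 windows (10%, against 5.14%), those of Ptprc, Scn2b and the noncoding 4930548G14Rik. TATAAA, the core of the TATA box, was found in 6 (20%, against 13.6%), TTTATNG (CDX) in 3 (10%, against 10.9%), and the latter 3 matches shared letters with TATAAA. CCGGAAGT (ETS), AGATAA (bound by GATA factors) and TGANTCA (AP-1) were found in 1 window each (3.33%, against 3.89%, 11.2% and 7.81%). The direct repeat bound by PPAR, the palindrome bound by the glucocorticoid receptor, the CREB site TGACGTCA, the FOXO site TGTTTAC and the palindrome bound by HNF1 had no match in the 30 windows and were held by 0.0396%, 0.475%, 1.79%, 3.65% and 0.00913% of all windows. A match is a stretch of letters and not a shown binding site.

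The 449 regions ranked in the middle of their lists. The authors' score per peak has no stated unit, so each peak was ranked within its own list. The median percentile was 61.4 in Fast (-Tetra) list 1, 45.3 in list 2, 47.5 in Fast (+Tetra) list 1 and 27.9 in list 2. Other regions with a peak in exactly 4 of the 8 lists, 4645 in number, had medians of 39.8, 35.5, 36.2 and 22.8 in the same lists, and regions in all 8 lists 85.8, 83.3, 83.4 and 74.8. The fasting regions thus ranked above other regions found in as many lists, and below the constant ones. The shortest list, Fast (+Tetra) list 2, gave the lowest ranks, and ranks in lists of different length show no change between groups. The regions kept their order only loosely from list to list, with Spearman correlations of the scores of 0.25 to 0.38 over the 6 pairs of Fast lists (n = 449 regions, which share the lists that chose them).

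**Figure D1:**
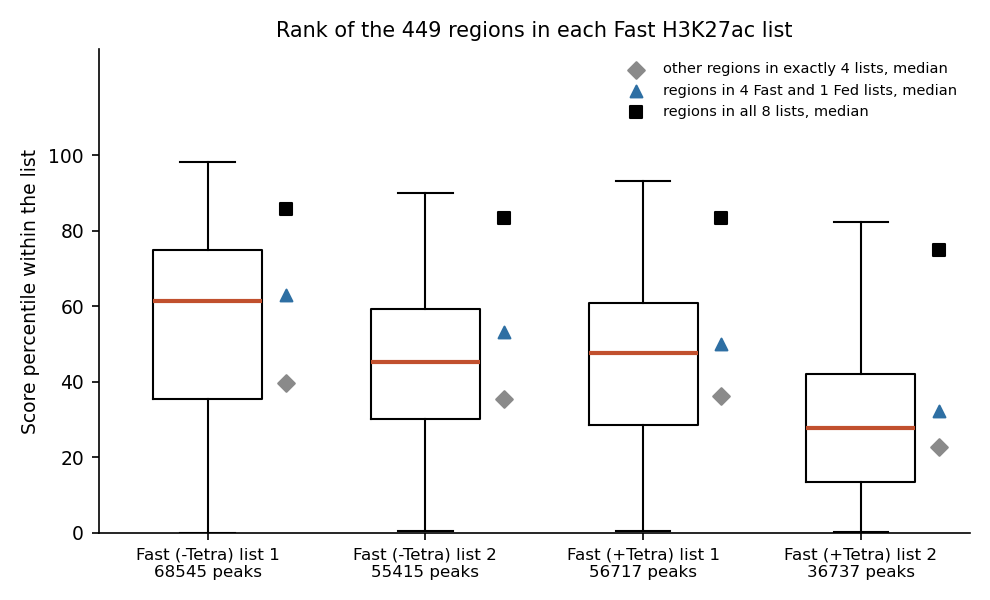
Score percentile within each of the 4 Fast H3K27ac lists for the 449 regions; the box gives the quartiles and median, the whiskers the lowest and highest region, and the symbols the medians of 3 other classes of regions. The orange medians lie between 27.9 and 61.4, above the grey diamonds and below the blue triangles and black squares in every list.

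The regions were of intermediate width, with a median merged width of 1123 bp, quartiles of 952 and 1386 bp, and limits of 594 and 3018 bp. Other regions in exactly 4 lists had a median of 1010 bp, regions in all 8 lists 2102 bp, and the 94 Fed regions 963 bp. Within lists, the median peak at these regions was 793 bp wide in Fast (-Tetra) list 1, 876 bp in list 2, 729 bp in Fast (+Tetra) list 1 and 865 bp in list 2. The widest region, 3018 bp at chr15:94658777-94661794, lay inside Tmem117, and the narrowest, 594 bp at chr12:79623030-79623623, inside the DNA repair gene Rad51b.

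The highest-ranked region, chr4:97465274-97466659, lay between genes, 111406 bp from Nfia, a transcription factor of the nuclear factor I family. Its percentiles were 98.2 and 89.9 in Fast (-Tetra) lists 1 and 2 and 93.2 and 77.5 in Fast (+Tetra) lists 1 and 2, and its nearest constant H3K27ac region was 284097 bp away. The next, chr4:95483295-95484657, lay 72822 bp from the carbohydrate kinase gene Fggy and had percentiles of 96.3, 88.2, 83.9 and 59.9 in the same order. Nearest genes were sought among protein-coding genes only, and the start of the long noncoding Gm12707 lay 885 bp from this region. The next, chr9:7681532-7682983, lay between Mmp20 and Mmp7, 9.11 kb from Mmp7, which encodes the protease that activates the defensins of Paneth cells, and had percentiles of 90.3, 80.4, 84.3 and 42.3. All 3 ranked lowest in Fast (+Tetra) list 2, where the region near Mmp7 lay below the middle of the list. A region inside Pank1, the pantothenate kinase that opens coenzyme A synthesis, lay at chr19:34845253-34847373 with percentiles of 87.4, 73.0, 83.8 and 49.7. The other 6 of the 10 highest had median percentiles of 72.0 to 74.4. They lay in Tmem117, Camsap2 and Clcn1, and 95421 bp from Ankrd55, 82445 bp from Fars2 and 26060 bp from Snx4. The lowest-ranked region, chr4:49469520-49470189 inside Acnat1, had a median percentile of 8.37, so the rule also took in peaks close to the lists' score floor.

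The threshold of the rule is the number of lists, and regions 1 list away from it were more numerous than the regions inside it. A peak in 4 Fast and 1 Fed lists was found in 742 regions, in 389 of which the Fed list was Fed (-Tetra) list 2 and in 271 Fed (+Tetra) list 2. Among the highest-ranked of these, one lay in the kinase gene Sgk1 (median percentile 89.1 in Fast lists, and 28.3 in Fed (+Tetra) list 2) and another in Smyd3 (88.7, and 9.18 in Fed (+Tetra) list 2). A peak in 3 Fast and no Fed lists was found in 1176 regions, of which 564 were missing from Fast (+Tetra) list 2, the shortest Fast list. The highest-ranked of those lay near Asb1 (84.6) and Etv4 (77.6) and in Ust (77.2).

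By position the regions were mostly distal. Of the 449, 32 (7.13%) lay within 1 kb of a protein-coding gene's end and at least 19 (4.23%) within 1 kb of a protein-coding start site. Among other regions in exactly 4 lists 12.9% lay at a gene end, among the 94 Fed regions 10.6%, and among regions in all 8 lists 40.7%. Between protein-coding genes lay 216 of the 449 regions (48.1%), against 37.9% of other regions in exactly 4 lists and 25.8% of those in all 8. The median gap to a gene end was 25817 bp, against 13008 bp for other regions in exactly 4 lists. The median gap to the nearest H3K27ac region of all 8 lists was 33768 bp, against 14629 bp for other regions in exactly 4 lists and 7471.5 bp for the Fed regions. Within 1 kb of such a constant region lay 17 of the 449 (3.79%), against 10.9% of other regions in exactly 4 lists. A region with a peak in any Fed list lay closer, at a median gap of 6819 bp, within 1 kb of 72 of the 449 (16%) and within 5 kb of 190 (42.3%). No hairpin of the 1005 microRNAs in the RefSeq table overlapped any of them.

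**Figure D2:**
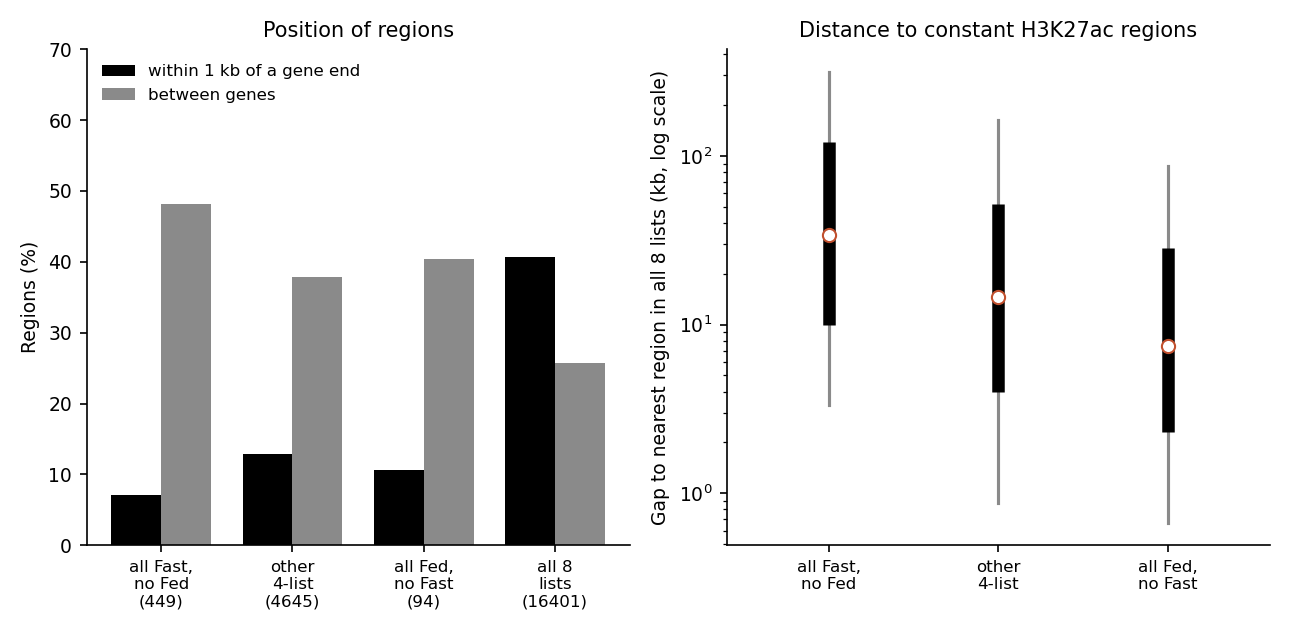
Left, percent of regions within 1 kb of a gene end (black) and between genes (grey) in 4 classes of H3K27ac regions, with their number in brackets; right, gap to the nearest region in all 8 lists in kb on a log scale, with the median (circle), the quartiles (thick bar) and the range from the lowest to the highest 10% (thin line). The fasting regions have the lowest share at gene ends (7.13%) and the longest median gap (33768 bp).

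The 32 regions at gene ends touched 33 genes, of which 17 had H3K27ac at an end in all 4 Fast and no Fed lists. They include the receptor genes Fgfr4, Tnfrsf19, Hcar2 and Npy2r, the immune genes Ptprc and Cklf, the lysosomal membrane gene Glmp, the transcription factor genes Zbtb16 and Klf12, and Scn2b, Chrnb3, Plekhb1, Xylt1, Tmem248, Krt31, Olfr750 and C1ql4. These 17 genes were found through regions chosen by the rule, so the pattern at their ends largely restates it. The share of all protein-coding genes with this pattern was not counted. For 13 of the 33 genes, among them the ephrin receptor gene Ephb3, the galectin gene Lgals9 and Myadm, a Fed list had a peak elsewhere at the same gene's ends, so the fasting region was not the gene's only mark there. The region at Fgfr4, chr13:55152356-55153960, covers the start window shown and ranked at percentiles of 72.9, 71.0, 65 and 21.6 in Fast (-Tetra) lists 1 and 2 and Fast (+Tetra) lists 1 and 2. The region at Tnfrsf19, chr14:61046091-61047105, ranked lower, at 25.6, 23.9, 0.562 and 16.7. The region at Ptprc, chr1:138174645-138175619, ranked at 28.3, 6.54, 23.7 and 31.0. Ptprc was the only one of the 16 genes of lymphocytes and myeloid cells with a fasting region within 100 kb. The number of those 16 genes marked was 9 and 7 in Fed (-Tetra) lists 1 and 2, 7 and 8 in Fast (-Tetra), 2 and 4 in Fed (+Tetra), and 7 and 8 in Fast (+Tetra). The part of such cells in the Ptprc peak was not tested.

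Among the remaining regions, over 1 kb from any gene end, the nearest genes numbered 375. Of these, 151 (40.3%) had H3K27ac at an end in all 8 lists, 96 (25.6%) had none in any list, 73 (19.5%) were marked in more Fast than Fed lists, and 32 (8.53%) the reverse. The genes nearest to other distal regions in exactly 4 lists gave 50.6%, 19.5%, 14.4% and 11.3% in the same order. Over all protein-coding genes the shares were 33.6%, 39.4%, 13.2% and 9.44%.

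Genes were next taken by role, counting a gene when a fasting region lay within 100 kb of it. A region could count for several genes and could lie nearer to a gene outside the lists. Over all protein-coding genes 5.37% had one, and among the genes marked at an end in all 8 lists 6.45%. Over 20 lists of intestinal, metabolic and signalling genes the count was 38 of 267 (14.2%). These lists were chosen with earlier results known, and their genes also had other regions in exactly 4 lists nearby more often than all genes, in 65.5% against 46.7%. Of the 267 genes, 3 (1.12%) had one of the 94 Fed regions within 100 kb, against 1.38% of all protein-coding genes.

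**Figure D3:**
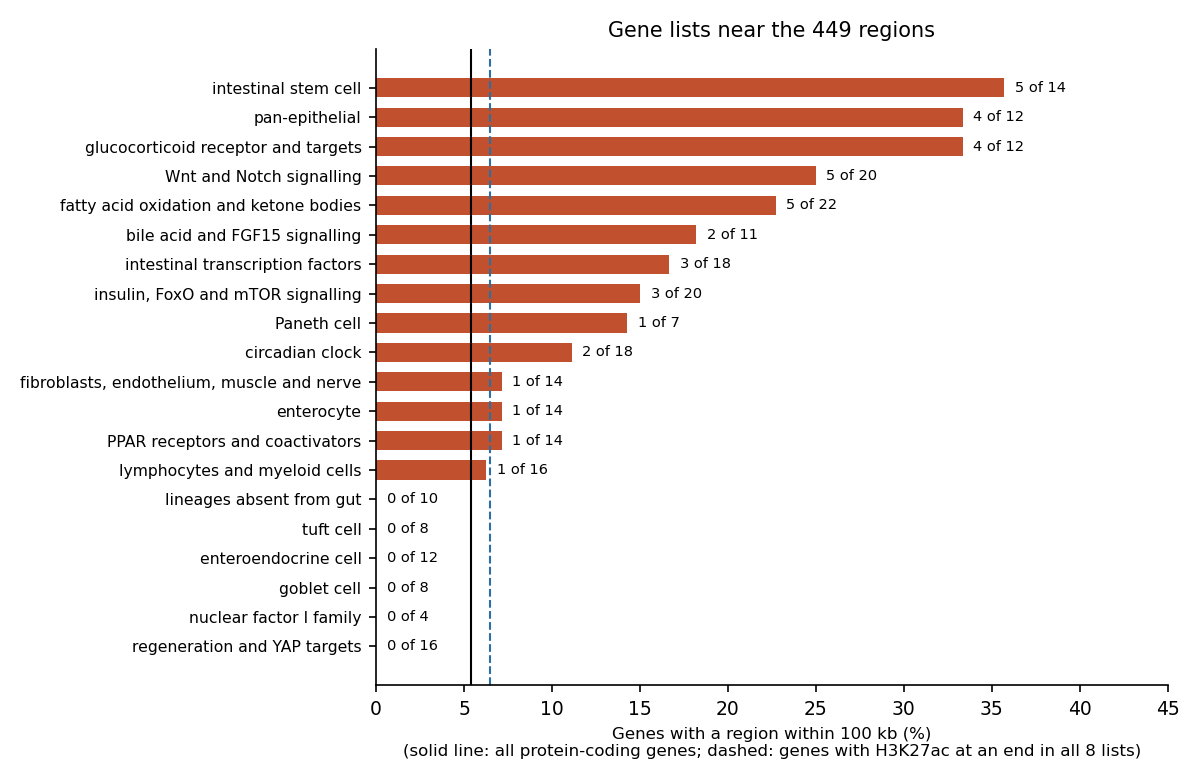
Percent of each list's genes with one of the 449 regions within 100 kb, with counts beside the bars. The solid line is the share of all protein-coding genes (5.37%) and the dashed line that of genes with H3K27ac at an end in all 8 lists (6.45%); the lists of stem cell, pan-epithelial and glucocorticoid genes have the highest shares.

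Of 14 intestinal stem cell genes, 5 had a fasting region nearby. The region of Msi1, an RNA-binding protein of stem and progenitor cells, lay within the gene at chr5:115430390-115432067 and ranked at percentiles of 34.9, 44.2, 23.8 and 17.4 in Fast (-Tetra) lists 1 and 2 and Fast (+Tetra) lists 1 and 2. The region nearest to Ascl2, the transcription factor that maintains stem cell identity, lay 33.5 kb from it at chr7:142931783-142933351, with percentiles of 51.4, 57.3, 47.1 and 41.8. That region lay slightly nearer to another gene, Th (31787 bp). Smoc2, a secreted matrix protein enriched in stem cells, had one at 43.4 kb, at chr17:14234396-14236108, with percentiles of 80.3, 40, 60.1 and 54.4. Znrf3, a ubiquitin ligase that removes Wnt receptors, held one within the gene (median percentile 32.2), and the Tnfrsf19 region is described above. Ascl2 was itself marked at an end in 3 Fast and no Fed lists, and Smoc2 in 4 Fast and 2 Fed lists. Msi1 was marked at an end in no list and Znrf3 in all 8.

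Of 22 genes of fatty acid oxidation and ketone bodies, 5 had a fasting region nearby. Hcar2, the receptor for the ketone body beta-hydroxybutyrate, held one across its end at chr5:123862329-123863591, with percentiles of 68.0, 56.4, 54.3 and 16. Acot1, an acyl-CoA thioesterase, held one at chr12:84011301-84012055, 17.4 kb from its paralog Acot2, but its percentiles were 1.64, 45.3, 5.61 and 21.6, close to the score floor in 2 lists. Of 14 genes of PPAR receptors and coactivators only Ppargc1b had one, at 34.9 kb.

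Of 12 genes of the glucocorticoid receptor and its targets, 4 had a fasting region nearby. Zbtb16, a zinc finger repressor induced by glucocorticoids, held 4 regions, at chr9:48737000-48738205, chr9:48744686-48747018, chr9:48826083-48827312 and chr9:48835451-48836922. Their median percentiles were 70.3, 44.1, 47.2 and 55.4, and the last reached the end of the gene, which was marked in all 4 Fast and no Fed lists. Tsc22d3, which encodes the glucocorticoid-induced leucine zipper, held a pair at chrX:140544667-140545538 and chrX:140567345-140568599, with median percentiles of 60.5 and 61.2. Fkbp5, a cochaperone of the receptor, had one at 9.19 kb, at chr17:28495340-28496660, with percentiles of 65.4, 65.5, 76.9 and 50.6. Klf9 had one at 82.6 kb. Only Zbtb16 of these 4 genes lacked Fed marks at its ends, as Tsc22d3 and Klf9 were marked in all 8 lists and Fkbp5 in 4 Fast and 3 Fed lists.

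Of 20 genes of insulin, FoxO and mTOR signalling, 3 had a fasting region nearby. They were Ddit4, which restrains mTORC1, with 4 regions within 100 kb, the stress sensor Sesn2 (43.5 kb) and the insulin receptor substrate Irs1 (81.5 kb). Of the 4 regions within 100 kb of Ddit4, only that at 23.8 kb had it as its nearest gene. The others lay 5294 bp from Dnajb12, inside Anapc16 and inside Ascc1. Ddit4 was itself marked at an end in all 8 lists. The Sesn2 region lay nearer to Dnajc8 (179 bp). Of 20 Wnt and Notch genes, 5 had a fasting region nearby. Among them were the receptors Notch1 (within the gene), Notch2 (91.7 kb) and Lrp6 (66.2 kb). The others were the secretory lineage factor Atoh1 (23.2 kb) and the Wnt effector Tcf7l2 (within the gene). The Notch2 region lay nearer to Reg4 (5361 bp), and the Lrp6 region nearer to Mansc1 (607 bp). Of 11 bile acid genes, Fgfr4 and the exporter Slc51a (71.1 kb) did, and of 18 intestinal transcription factors, Foxa2, Klf4 and Gata4. Of 18 clock genes, 2 did, Npas2 at 54.3 kb and Bhlhe40 at 3.34 kb, the Npas2 region lying inside Tbc1d8. Among cell type lists, Krt8, Krt18, Krt19 and Krt20 made up the 4 of 12 pan-epithelial genes, Krt8 and Krt18 sharing 1 region. The Krt19 region lay inside Krt31, 92.4 kb from Krt19, and the Krt20 region inside Krt23, 50.7 kb from Krt20. Enterocyte genes gave 1 of 14. Mmp7 was the 1 of 7 Paneth genes and Pecam1 the 1 of 14 genes of fibroblasts, endothelium, muscle and nerve. None of 16 regeneration genes, 12 enteroendocrine, 8 goblet and 8 tuft genes, and none of 10 genes of lineages absent from gut, had one. The nuclear factor I family also gave 0 of 4, the region nearest to Nfia lying beyond 100 kb.

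The regions tended to lie near each other. Within 50 kb of another of the 449 lay 67 regions (14.9%). The 449 regions had 288 neighbours within 50 kb that were present in exactly 4 lists, and 72 of these (25%) were fasting regions themselves, against 8.81% of all 5094 regions in exactly 4 lists. Chained at 100 kb, 353 regions stood alone, 36 pairs were formed, and 7 groups held 3 or 4 regions. They lay at Fggy on chromosome 4, at Mmp20 and Mmp7 and at Zbtb16 on chromosome 9, around Ddit4 between Dnajb12 and Ascc1 on chromosome 10, at Sypl on chromosome 12, near Ets2 and Psmg1 on chromosome 16, and near Rgmb on chromosome 17. The Mmp20 group was the most compact, 3 regions in 38 kb. None of the regions of the Mmp20, Sypl and Rgmb groups had H3K9ac in a Fed list, as was the case for 359 of the 449, and 1, 0 and 1 of the 3 regions in these groups had it in a Fast list. The Ddit4 group was the longest, 4 regions in 170.6 kb. With every H3K27ac list cut to its top-scoring peaks at the length of the shortest list, the share within 50 kb of another fell from 14.9% to 8.92%.

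**Figure D4:**
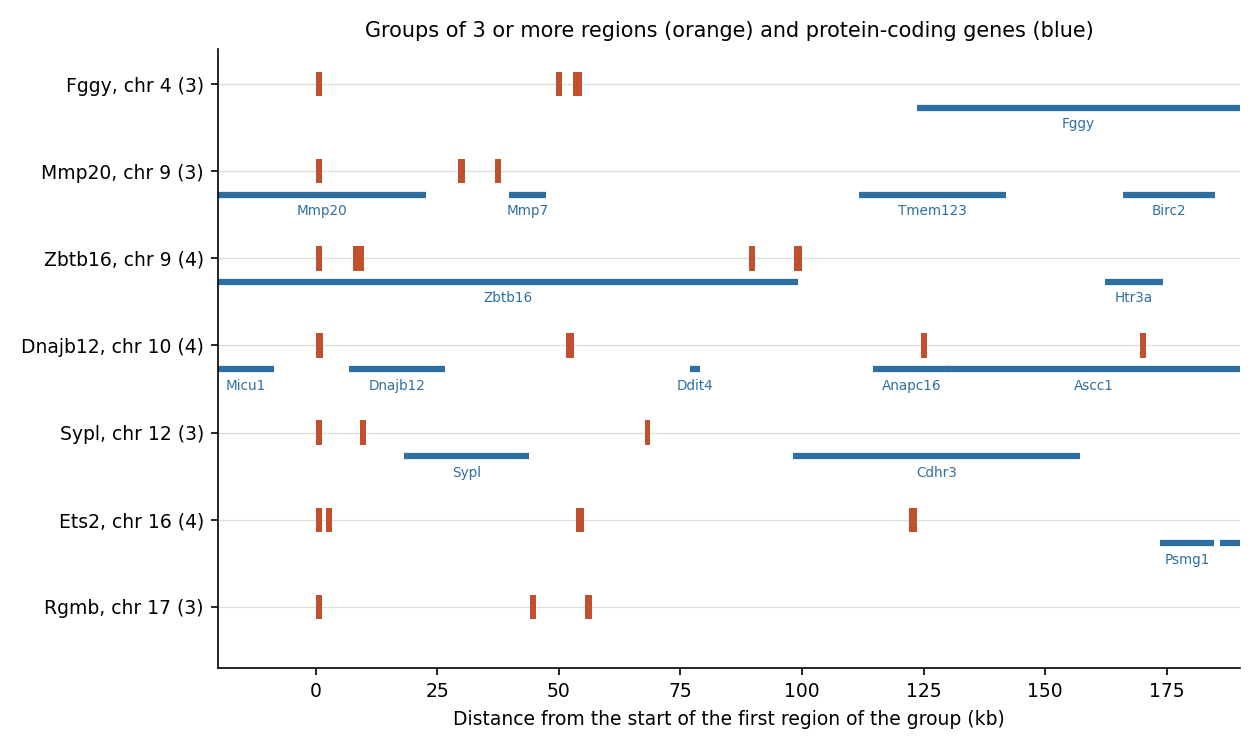
The 7 groups of 3 or 4 fasting regions (orange, drawn at least 1.2 kb wide) chained at 100 kb, with protein-coding genes (blue), by distance in kb from the start of each group's first region. The Zbtb16 group lies almost wholly within 1 gene, while the Fggy, Ets2 and Rgmb groups lie between protein-coding genes.

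H3K9ac was measured in separate libraries that the rule did not use, and it allowed a test. The question was whether the regions that had H3K27ac with fasting also had more H3K9ac. An H3K9ac peak overlapped 8 of the 449 regions (1.78%) in Fed (-Tetra) list 1 and 47 (10.5%) in list 2. In Fast (-Tetra) it overlapped 83 (18.5%) in list 1 and 59 (13.1%) in list 2. In Fed (+Tetra) the counts were 23 (5.12%) and 41 (9.13%), and in Fast (+Tetra) 89 (19.8%) and 79 (17.6%). All 4 Fast lists were above all 4 Fed lists, so the groups did not overlap.

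The mean was 17.3% ± 2.90 in Fast lists and 6.63% ± 3.95 in Fed lists (SD, n = 4 lists each), a difference of 10.6 percentage points. An exact two-sided permutation of the feeding labels within each tetracycline state (36 arrangements) gave p = 0.0556, the smallest it can give, and 0.0556 after Benjamini-Hochberg adjustment over 2 tests. The design cannot reach 0.05. The difference was 9.69 points without and 11.6 points with tetracycline, and all 4 pairs of lists sharing a number had Fast above Fed. It was 15.7 points over lists 1 and 5.57 over lists 2. H3K9ac lists differed in length, with 99050 and 97764 peaks in lists 1 of Fast (-Tetra) and Fast (+Tetra) against 17249 and 24643 in lists 1 of Fed (-Tetra) and Fed (+Tetra). In lists 2 the Fast lists were the shorter, with 35889 peaks against 51552 without tetracycline and 53313 against 54158 with it, and Fast was still higher. When every H3K9ac list was cut to its top-scoring peaks at the length of the shortest list, the difference was 1.17 points (exact permutation p = 0.444). Fast (+Tetra) list 1 then fell to 0.891%, below the 2.90% of Fed (+Tetra) list 1.

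To allow for list length, each list's share was divided by its share among other regions in exactly 4 lists. Those other regions had H3K9ac in 7.75% and 21.8% of cases in Fed (-Tetra) lists 1 and 2, 19.2% and 14.5% in Fast (-Tetra), 10.3% and 19.1% in Fed (+Tetra), and 22.6% and 17.8% in Fast (+Tetra). The log2 ratio of the 449 regions to these was -2.12 and -1.06 in Fed (-Tetra) lists 1 and 2, -1.0 and -1.06 in Fed (+Tetra), -0.06 and -0.14 in Fast (-Tetra), and -0.19 and -0.02 in Fast (+Tetra). In Fast lists the 449 regions thus had nearly as much H3K9ac as these other regions, and in Fed lists less. Both sets differed in position, with 7.13% of the 449 and 12.9% of the others at a gene end. The means were -0.10 ± 0.08 for Fast and -1.31 ± 0.54 for Fed (SD, n = 4 lists each), a difference of 1.21 (exact permutation p = 0.0556, two-sided, the smallest possible, adjusted p = 0.0556 over 2 tests). It was higher in 4 of 4 pairs, 1.49 without and 0.93 with tetracycline, 1.44 over lists 1 and 0.98 over lists 2. With H3K9ac lists cut to equal length it was 1.08 (exact permutation p = 0.111).

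**Figure D5:**
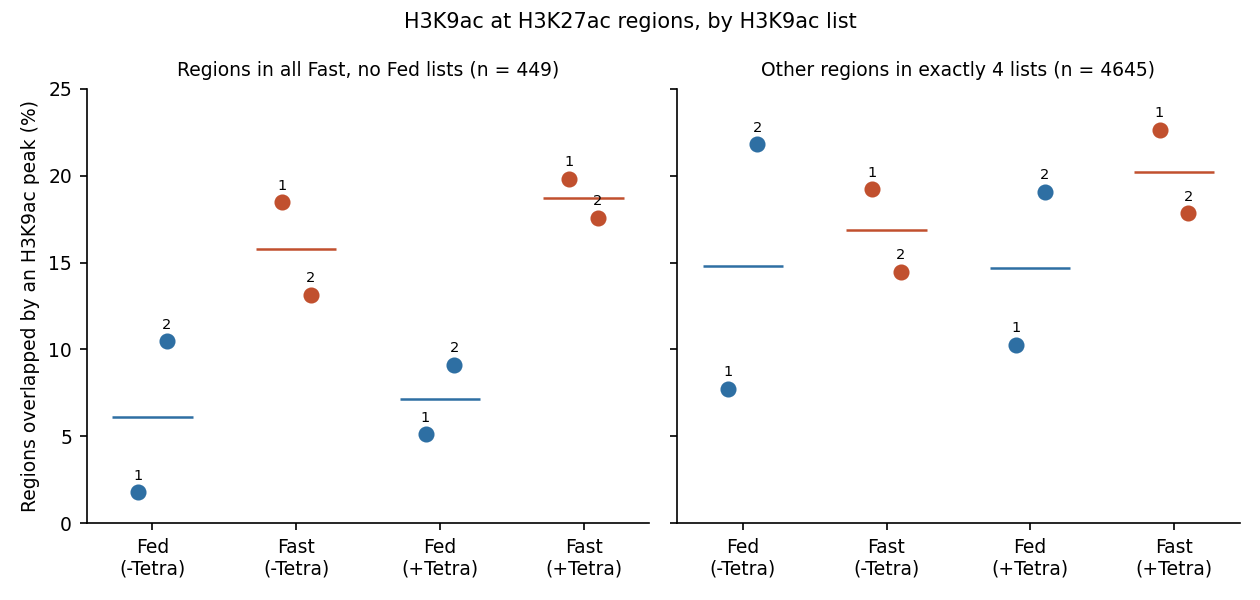
Percent of regions overlapped by an H3K9ac peak in each of the 8 H3K9ac lists, for the 449 fasting regions (left) and the other 4645 regions in exactly 4 lists (right); points are lists 1 and 2, and bars the mean of both. On the left the Fast points (13.1% to 19.8%) lie above the Fed points (1.78% to 10.5%), and on the right they overlap.

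The same difference was 3.82 percentage points at other regions in exactly 4 lists, -2.39 at the 94 Fed regions, -1.97 at regions in all 8 lists and 2.15 over all 112301 regions, none of which was tested. Regions just outside the rule gave 12.8 points (4 Fast and 1 Fed lists) and 9.16 points (3 Fast and no Fed lists). Among the 449, the 217 inside genes and over 1 kb from an end had means of 18.3% in Fast and 6.22% in Fed lists. The 200 between genes had 14.8% and 5.50%. Other regions in exactly 4 lists had 16.2% and 12.5% inside genes, and 13.1% and 8.53% between genes. Of the 449, the 32 at gene ends had more H3K9ac in both states, 25.8% and 16.4%, against 43.0% and 41.2% of the other regions there. For these 32 the lists overlapped, at 12.5% to 34.4% in Fast and 6.25% to 25% in Fed. The widest 150 regions, from 1300 bp up, had 23.8% in Fast and 9.17% in Fed lists, and the narrowest 149, up to 1001 bp, 12.1% and 4.70%. Among the narrowest the lists overlapped, at 4.70% to 19.5% in Fast and 2.01% to 8.72% in Fed. They also overlapped among the 150 lowest-ranked, at 7.33% to 22.0% in Fast and 2.67% to 12.0% in Fed.

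Region by region, 203 of the 449 (45.2%) had no H3K9ac peak in any list. H3K9ac was found in more Fast than Fed lists at 175 regions (39.0%), against 20.7% of all H3K27ac regions and 30.1% of other regions in exactly 4 lists. It was found in more Fed than Fast lists at 38 regions (8.46%), against 13.9% and 19%. At least 1 Fast and no Fed list had it at 156 regions (34.7%, against 15.3% and 22.8%), and at least 2 Fast and no Fed lists at 40 (8.91%, against 2.99% and 4.99%). Regions just outside the rule gave similar shares, so these are not particular to the 449. In the same order, regions in 4 Fast and 1 Fed lists had 45.3%, 9.57%, 33.6% and 9.70%. Those in 3 Fast and no Fed lists had 36.6%, 9.18%, 31.9% and 7.57%. Most of the 449 regions shared H3K9ac with few lists, 116 having it in 1 Fast list alone.

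A single region had H3K9ac in all 4 Fast and no Fed lists, the one inside Msi1. How many of all H3K27ac regions had this pattern, or H3K9ac in 3 Fast and no Fed lists, was not counted. The regions are therefore named as a description, and no excess is read from their number. Its own H3K27ac ranks were low, with a median percentile of 29.4. The 5 regions with H3K9ac in 3 Fast and no Fed lists included those in Zbtb16 (the region at its end), in Acadsb, which encodes an acyl-CoA dehydrogenase for branched-chain acids, near B4galnt4 and near Gm52512. The start site regions of Fgfr4 and Tnfrsf19 had H3K9ac in both feeding states, in 3 Fast and 2 Fed lists and in 2 Fast and 3 Fed lists. That of Glmp had it in all 8 lists and that of Cklf in 4 Fast and 2 Fed lists. The regions at Ptprc, Scn2b and Hcar2 had it in none.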

How the data were processed

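H3K27ac and H3K9ac CUT&Tag libraries of mouse crypts were used as 16 deposited peak lists, 2 per sample for 8 samples. The authors deposited, per peak, a position and a score without a stated unit; peak names begin with MACS and list names say downsampled. Bowtie, SAMtools, FastQC and mm10 are named without a role per the submitters' processing notes. Read totals, the caller's cutoff and the use of IgG were not given in the sources used here. No column of other samples was present.

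From these lists, peaks were merged, ranked by score within a list, and set against genes, start site windows and microRNAs of RefSeq tables for GRCm38.p6. Gene ends, and positions inside or between genes, were those of protein-coding genes. Feeding was tested by exact permutation over lists. The paired fit took Fast and Fed lists of the same number and tetracycline state. Alternatives were fewer or wider peaks, other overlaps and windows, and left-out lists. The members and the gene lists were chosen with earlier results of these data known. The motif set, the start site measures, the marks at nearest genes and the counts of other 4-list regions near genes were added after the files were seen. Named were the 10 regions with the highest median percentile, up to 25 genes at gene ends, genes of the lists (planned as up to 25, exceeded in the end), groups of 3 or more, regions with H3K9ac in all Fast and no Fed lists, the widest and narrowest, and the 3 highest-ranked regions of each class just outside the rule; other names were chosen after their values were seen. A few genes that this rule would name are not reported here. The tools were scipy 1.17.1, pandas 2.3.3, numpy 2.4.6 and, for figures, matplotlib 3.10.9 under Python 3.11.15, and the scripts were checked on simulated data.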

Additional observations from a re-analysis of the deposited data

Results flagged for a closer look

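Among the 4 Fed lists, Fed (-Tetra) list 1 stood apart in the log2 ratio of H3K9ac at the fasting regions to H3K9ac at other regions in exactly 4 lists, at -2.12 against -1.06 to -1.0 in the other 3, a gap that is 0.945 of the whole range of the 4 values. It was the shortest H3K9ac list, with 17249 peaks, and 8 of the 449 regions had a peak in it. In all, 6 groups of 4 lists were examined, and chance flags about 1 in 20. Over lists 2, which leave it out, the Fast minus Fed difference of this ratio was 0.98.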

How the results depend on the processing

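Every H3K9ac difference, taken as the mean over the lists of a run, kept its direction under the alternatives run. No test could pass 0.05, which says nothing about stability. Single pairs of lists did not all keep it. With H3K9ac lists cut to equal length, Fast (+Tetra) list 1 had 0.891% against 2.90% in Fed (+Tetra) list 1. Leaving out lists gave 490 to 5152 fasting regions, since fewer lists make the rule easier to meet. Single lists that moved the count by over 1.5 times were Fed (-Tetra) list 2 (837), Fast (-Tetra) list 1 (721), Fed (+Tetra) list 2 (721), Fast (+Tetra) list 1 (688) and Fast (+Tetra) list 2 (1020). The same leave-outs gave 7.35% to 11.2% of regions at a gene end, 14.4% to 47.5% within 50 kb of another, H3K9ac differences of 8.01 to 11.9 points and log2 ratio differences of 0.52 to 1.29. Leaving out the H3K9ac lists of 1 number gave differences of 5.57 to 15.7 points and of 0.98 to 1.44. With every H3K27ac list cut to equal length by score there were 314 regions, of which 107 overlapped the 449, and 8.92% lay within 50 kb of another. Taking the upper 0.5 of the peaks by score gave 396 regions, of which 28 overlapped the 449, so which regions meet the rule depends on the peaks used. Widening the gene end window to 2.5 kb gave 11.8%, and widening the clustering window to 100 kb gave 21.4%. Across the other alternatives the H3K9ac difference ran from 1.17 to 16.1 points and the log2 ratio difference from 0.74 to 1.47. With the replicate block, which pairs lists of the same number, the differences were unchanged at 10.6 points and 1.21, with an exact sign-flip p of 0.125, the smallest possible; the labels do not say that the numbers pair the lists. Unknown depth limits what the absence of a peak shows.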

Other observations

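Some genes outside the lists also had several of the 449 regions, and they were chosen after their values were seen. Rad51b had 4 within 50 kb, as many as Zbtb16. Fgfr2, a receptor for fibroblast growth factors, was the nearest gene of 3, of which those at chr7:130219360-130220493 and chr7:130246107-130247378 lay within the gene. Myc was the nearest gene of a pair at chr15:62294892-62295923 and chr15:62302038-62303082, 304530 bp and 311676 bp away, with median percentiles of 59.6 and 64.3.

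By chromosome, the 449 regions made up 4.88% of the regions in exactly 4 lists on chromosome 2 and 12.4% on chromosome 4, the lowest and highest of the autosomes, and 8.20% on X. Within 1 kb of the start of a long noncoding RNA lay at least 20 of them (4.45%; the table gave no start on 1 chromosome), against 3.42% of other regions in exactly 4 lists and 7.60% of regions in all 8.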
